A study of Drosophila melanogaster with 12 samples.

Results

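The eye pigment genes are the genes whose products import or make the brown ommochromes and red drosopterins of the fly eye. The 9 genes described here were chosen by symbol: w, st, bw, cn, v, ry, Pu, se and Hn. Every row of the isoform table that carries one of these symbols was taken, which gave 15 of the 30738 isoforms listed, and isoform values were also summed to 9 of the 13963 genes. The study compared heads of tau transgenic Drosophila melanogaster (elav-Gal4/+;UAS-tauR406W/+), in which the pan-neuronal driver elav-Gal4 expresses human tau carrying the R406W mutation of a familial frontotemporal dementia, with heads of elav-Gal4/+ control flies, which carry the same driver and no tau transgene. There were 3 libraries of each genotype, each from a pool of 500 heads of flies aged to 10 days, and males and females entered in equal numbers per the study's methods. RNA was sequenced directly on nanopores. The short-read control libraries were not analysed here.

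White, scarlet and brown, the products of w, st and bw, are ABC half-transporters of the pigment granule membrane. White pairs with Scarlet to take up precursors of the ommochromes and with Brown to take up precursors of the drosopterins, and w is also expressed outside the eye, in brain and Malpighian tubules among other tissues. Ommochromes are made from tryptophan by way of kynurenine, and drosopterins from GTP by way of tetrahydropterins. The related tetrahydrobiopterin is a cofactor for the synthesis of dopamine and serotonin. Flies of the w1118 stock, which the study's methods name as its background, carry a deletion at w and have white eyes, and constructs inserted into such flies are usually followed by a shortened w gene that restores eye colour. Tau flies carry the UAS construct in addition to the driver. Which markers these constructs carry is not given in the sources used here, and reads of w from a marker copy and from the w locus cannot be told apart in the table.

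Depth was modest for genes of this abundance. The reads assigned to isoforms ranged from 684408 to 1329915 in tau and from 573001 to 910700 in control libraries. TPM here is the number of reads of an isoform per 1000000 assigned reads and is not divided by length, so 3 reads were worth 2.26 to 4.38 TPM in tau and 3.29 to 5.24 TPM in control libraries, and that value was taken as the floor of each library. Reads that align to several isoforms were split between them by the authors. For the gene sums of the 9 genes, the values came out as whole reads within 0.01 of a read in all 6 libraries, except Hn in tau replicate 3. No member isoform had the same values as another isoform. The labelled tissue was checked against markers: the summed TPM of 12 photoreceptor genes was 44785 to 53005 in tau and 39614 to 44393 in control heads. That of 3 retinal pigment cell and lens genes was 1100 to 1348 in tau and 1136 to 1353 in control heads. Most of the latter was the pigment cell gene Pdh. The lens gene Crys was near the floor, at 4.88 to 7.31 TPM in tau and 0 to 5.49 TPM in control heads. The sums of 6 neuronal genes were 381 to 655 in tau and 490 to 648 in control heads, although elav itself was under 3 reads in all libraries. Those of 6 glial genes were 1048 to 1469 in tau and 1087 to 1360 in control heads, and those of 4 fat body genes, of which Fbp1 was under 3 reads throughout, were 627 to 992 in tau and 598 to 903 in control heads.

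**Figure D1:**
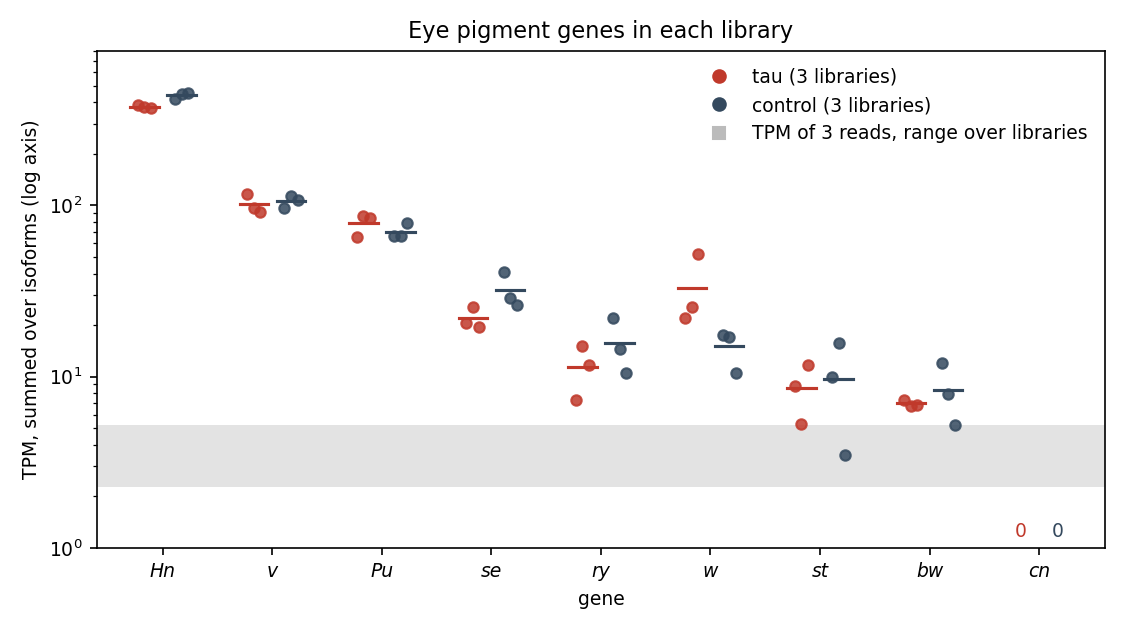
TPM of the 9 eye pigment genes, summed over isoforms, on a log axis, with 3 tau libraries (red, left) and 3 control libraries (dark, right) per gene. Points are libraries, short lines are means, and the grey band spans the floors of the libraries, 2.26 to 5.24 TPM. The genotypes do not overlap for w, se and Hn, and cn is at 0 in all 6 libraries.

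No eye pigment gene passed the test between tau and control heads. Hn and v were the members with the highest levels, w, se, ry, st and bw were covered by few reads, and no read was assigned to cn. The largest difference was that of w, which averaged 33.1 ± 16.3 TPM in tau and 15.1 ± 3.97 TPM in control heads (SD, n = 3 each), a difference of 1.02 ± 0.35 on the log2 scale (SE). Of the 8 genes with a mean of at least 5 TPM, 0 had an adjusted p of 0.05 or less (limma on log2(TPM + 1), Benjamini-Hochberg), against a background of 1.08% of the 8961 genes tested. At an unadjusted p under 0.05 there was 1 member, w, against 8.16% of all genes. In 3 of 8 members the 3 tau libraries did not overlap with the 3 control libraries, w being higher in tau and se and Hn lower, against 13.0% of all genes. With 8 members, 3 is a small count to read against that background. The median difference of the 8 members was -0.12 on the log2 scale, with 2 above 0 and 6 below, where the median of all genes tested was -0.04. At the isoform level, 0 of 10 tested isoforms passed (limma), against 0.758% of 12800 isoforms. The 2 isoforms at an unadjusted p under 0.05 were w-RA and Hn-RC, against 8.21% of all isoforms, and 3 of 10, w-RA, se-RA and Hn-RC, did not overlap between genotypes, against 13.4%.

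**Figure D2:**
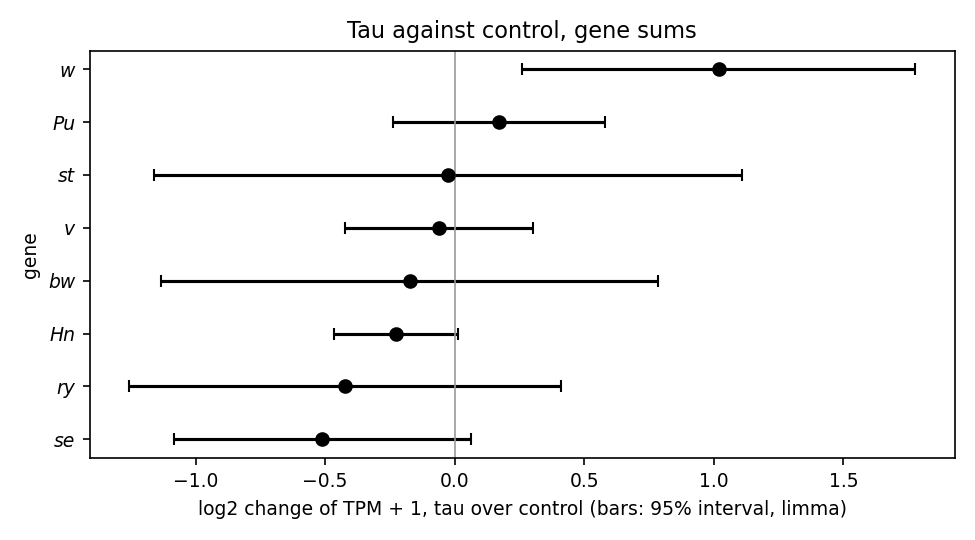
Difference of each tested eye pigment gene between tau and control heads on the log2(TPM + 1) scale, from limma over 3 libraries of each genotype. Points are estimates and bars are 95% intervals. The interval of w, 0.26 to 1.78, is the only one of the 8 without 0 before adjustment over all genes.

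Of the genes of the pigment transporters, w differed most between the genotypes and between tau libraries. The gene w (FBgn0003996) lies on the minus strand of the X chromosome, chrX:2790599-2796466 in the Release 6 assembly (dm6), with 1 isoform in the table, w-RA, of 2352 nt in 6 exons. It is contained in a much longer gene on the opposite strand, kirre, which was at 3.90 to 8.27 TPM in tau and 5.24 to 11.8 TPM in control heads. The level of w was 21.9, 25.6 and 51.7 TPM in tau replicates 1 to 3, and 17.6, 17.1 and 10.5 TPM in control replicates 1 to 3. All tau libraries lay above all control libraries, and tau replicate 3 stood well above the others. In reads, w had 15, 34 and 53 in tau, against 16, 13 and 6 in control libraries. The exact Poisson 95% intervals, which cover counting error only, were 12.3 to 36.1, 17.7 to 35.7 and 38.7 to 67.7 TPM in the tau libraries. Those of the control libraries were 10.0 to 28.5, 9.11 to 29.3 and 3.84 to 22.8 TPM. The interval of tau replicate 3 did not reach those of the control libraries, whereas those of tau replicates 1 and 2 overlapped with all of them. The difference corresponded to 2.03-fold (95% interval 1.20 to 3.43) on the scale of TPM + 1, with an unadjusted p of 0.0125 and an adjusted p of 0.348 (limma). Leaving out tau replicate 3 gave 0.65 on the log2 scale (unadjusted p = 0.0961, limma), and leaving out control replicate 3 gave 0.79 (unadjusted p = 0.0563, limma). Only tau flies carry the UAS construct, so genotype and a marker copy of w on that construct cannot be told apart here. The part of such a copy in the difference was not tested.

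The partners of w did not show such a difference. The gene st (FBgn0003515, chr3L:16497651-16500460, plus strand, 2146 nt) encodes the ommochrome partner. It was at 8.77, 5.26 and 11.7 TPM in tau and 9.88, 15.8 and 3.49 TPM in control heads, with 2 to 12 reads in a library. The genotypes overlapped fully, and the difference was -0.03 on the log2 scale (95% interval -1.16 to 1.11, adjusted p = 0.999, limma). The gene bw (FBgn0000241, minus strand of chromosome arm 2R) encodes the drosopterin partner, and summed over bw-RA and bw-RD it was at 7.31, 6.77 and 6.83 TPM in tau and 12.1, 7.90 and 5.24 TPM in control heads. Here the control libraries spread on both sides of the tau libraries, and the difference was -0.17 (95% interval -1.13 to 0.78, adjusted p = 0.971, limma). These intervals are wide at 2 to 12 reads: a fall by 1 on the log2 scale lies inside both, and a rise by 1 inside that of st.

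Since the same granules carry these subunits, w was also set against its partners and against markers of eye cells within each library, a comparison chosen after the values were seen. The ratio of w to the sum of st and bw was 1.36, 2.13 and 2.79 in tau and 0.80, 0.722 and 1.20 in control heads, with all tau libraries above all control libraries (two-sided exact permutation p = 0.1, the smallest that 3 against 3 allows). The sum of st and bw itself was 16.1, 12.03 and 18.5 TPM in tau and 22.0, 23.7 and 8.73 TPM in control heads, with overlap (exact permutation p = 0.6). Per 1000 TPM of Pdh, a retinol dehydrogenase of retinal pigment cells, w was 20.6, 20.4 and 40.3 in tau and 16.1, 13.1 and 9.52 in control heads (exact permutation p = 0.1). Pdh was at 1064, 1253 and 1283 TPM in tau and 1090, 1302 and 1099 TPM in control heads. Per 10000 TPM of the photoreceptor markers, w was 4.89, 5.55 and 9.76 in tau and 4.41, 3.85 and 2.64 in control heads (exact permutation p = 0.1). In all of these ratios tau replicate 3 was again the highest library, and the gap between the lowest tau and the highest control library was small. The values of w alone already did not overlap between genotypes, so these ratios are not separate evidence and add little to them. In control replicate 3 the ratio to the partners rested on 6 reads of w, 2 of st and 3 of bw. The summed TPM of the photoreceptor markers averaged 47945 ± 4427 in tau and 41289 ± 2690 in control heads (SD, n = 3 each), a ratio of 1.16. Most of that sum was the opsin gene ninaE, with a mean of 29759 TPM in tau and 23587 TPM in control heads, and 7 of the 12 markers had a difference above 0. The part of the photoreceptors in the level of w was not tested beyond the ratio of w to their markers. In pooled heads, fewer cells of a type and less RNA per cell cannot be told apart. Any reads of w from a marker copy would enter these ratios as well.

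**Figure D3:**
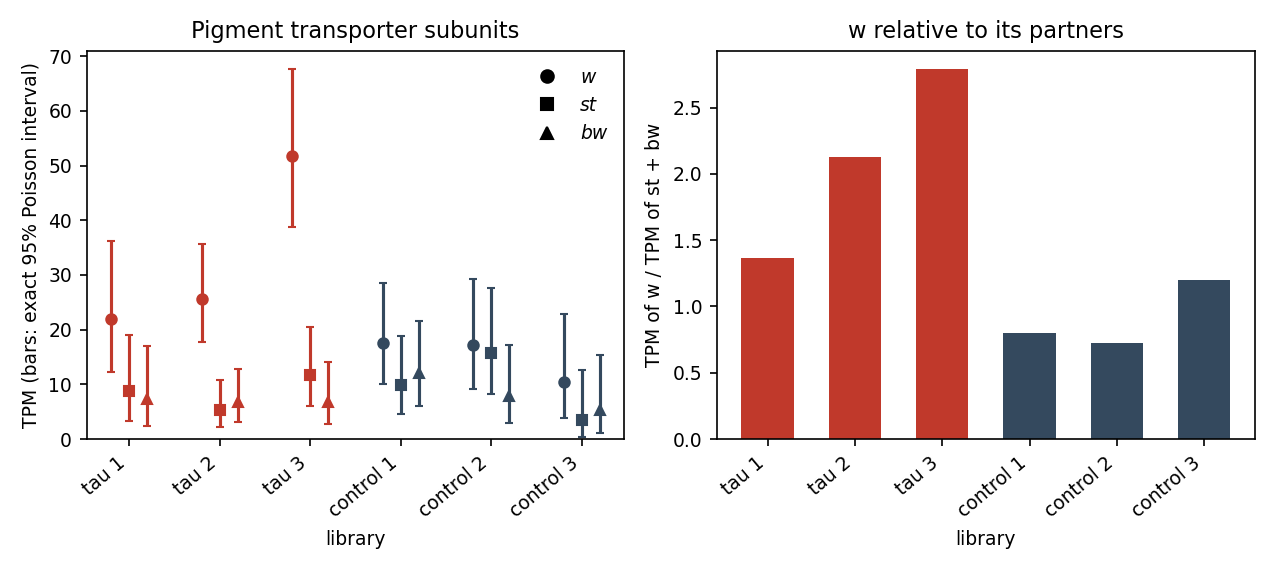
Left, TPM of w (circles), st (squares) and bw (triangles) in each of 3 tau (red) and 3 control (dark) libraries, with exact 95% Poisson intervals. Right, the ratio of w to the sum of st and bw, 1.36 to 2.79 in tau and 0.722 to 1.20 in control libraries. It has no overlap, as w alone has none.

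Of the ommochrome enzymes, v was well covered and cn had no reads. The gene v (FBgn0003965, chrX:10923972-10925631, plus strand, 1305 nt) encodes tryptophan 2,3-dioxygenase, the enzyme of the entry step from tryptophan. It was at 117, 97.0 and 91.7 TPM in tau and 96.6, 113 and 108 TPM in control heads. The genotypes overlapped throughout, and the difference of -0.06 had a narrow 95% interval, from -0.42 to 0.30 on the log2 scale (adjusted p = 0.973, limma). The gene cn (FBgn0000337, minus strand of chromosome arm 2R) encodes kynurenine 3-monooxygenase, the enzyme that makes 3-hydroxykynurenine. Its isoform cn-RB, of 1790 nt, had 0 reads in all 6 libraries. The exact Poisson 95% interval of a single library then reaches up to 2.77 to 5.39 TPM in tau and 4.05 to 6.44 TPM in control libraries. An antisense RNA gene, asRNA:CR45108, overlaps cn.

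The enzymes of the drosopterin and purine branch were led by Pu. The gene Pu (FBgn0003162, plus strand of chromosome arm 2R) encodes GTP cyclohydrolase I, which commits GTP to pterins. Its sum was 65.8, 87.2 and 84.9 TPM in tau and 65.9, 65.8 and 78.5 TPM in control heads. Tau replicate 1 was as low as the control libraries, and the difference was 0.17 (95% interval -0.24 to 0.58, adjusted p = 0.916, limma). The gene se (FBgn0086348, chr3L:8520552-8521489, plus strand, 825 nt) encodes the glutathione transferase of the omega class that makes the precursor joined into drosopterin. It was at 20.5, 25.6 and 19.5 TPM in tau and 40.6, 29.0 and 26.2 TPM in control heads, from 14, 34 and 20 reads in tau and 37, 22 and 15 reads in control libraries. All tau libraries were below all control libraries, by less than 1 TPM at the nearest pair, and the difference was -0.51 ± 0.27 (SE, unadjusted p = 0.0760, adjusted p = 0.705, limma). Leaving out control replicate 1, the highest library, gave -0.33. Per 1000 TPM of Pdh, se was 19.2, 20.4 and 15.2 in tau and 37.3, 22.2 and 23.8 in control heads. The exact permutation p was 0.1, the smallest possible. This ratio was not planned, and since Pdh overlapped between genotypes it adds little to the values of se itself. The end of se overlaps GstO2 on the opposite strand, which was at 93.5, 113 and 111 TPM in tau and 109, 122 and 112 TPM in control heads. Genes on the opposite strand also overlap st (CG43373), bw (mi) and Pu (CG4286). Of these, mi was at 7.52 to 9.76 TPM in tau and 5.24 to 10.5 TPM in control heads. On the same strand, a transposable element overlaps bw and a tRNA gene overlaps Pu. The gene ry (FBgn0003308, chr3R:13032528-13038020, plus strand, 4337 nt) encodes xanthine dehydrogenase, which acts on purines and pterins. It was at 7.31, 15.0 and 11.7 TPM in tau and 22.0, 14.5 and 10.5 TPM in control heads. Libraries of both genotypes were interleaved, and the difference was -0.42 (95% interval -1.26 to 0.41, adjusted p = 0.884, limma). It was -0.16 without tau replicate 1, -0.64 without tau replicate 2, -0.16 without control replicate 1 and -0.66 without control replicate 3.

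Hn had the most reads of the 9 genes and the tightest replicates. The gene Hn (FBgn0001208, chr3L:7760453-7763166, plus strand) encodes phenylalanine hydroxylase, an enzyme that uses tetrahydrobiopterin and supplies tyrosine. Its sum was 384, 376 and 370 TPM in tau and 421, 449 and 454 TPM in control heads, and every tau library lay below every control library. Hn averaged 377 ± 7.39 TPM in tau and 441 ± 17.9 TPM in control heads (SD, n = 3 each), 0.855-fold on the scale of TPM + 1 (95% interval 0.723 to 1.01). The difference of -0.23 ± 0.11 on the log2 scale (SE) did not pass the test (unadjusted p = 0.0629, adjusted p = 0.653, limma).

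Most of the signal of Hn came from Hn-RA and Hn-RC. These isoforms have the same coding sequence of 1359 nt in 5 exons and differ in where they begin, at position 7760453 for Hn-RA and at 7760551 for Hn-RC. Hn-RC was at 153, 168 and 167 TPM in tau and 200, 202 and 217 TPM in control heads, without overlap. Its difference was -0.34 (95% interval -0.62 to -0.07, unadjusted p = 0.0199, adjusted p = 0.436, limma). Hn-RA was at 228, 201 and 198 TPM in tau and 210, 243 and 232 TPM in control heads, with overlap and a difference of -0.13 (adjusted p = 0.892, limma). As a share of the gene, Hn-RA took 59.4%, 53.6% and 53.5% in tau and 49.9%, 54.2% and 51.0% in control heads (exact permutation p = 0.3). Hn-RC took 39.7%, 44.7% and 45.1% in tau and 47.5%, 45.0% and 47.9% in control heads (exact permutation p = 0.2). The shares of both isoforms overlapped between genotypes, those of Hn-RC only narrowly, and without control replicate 2 the shares of Hn-RA no longer overlapped. The test cannot go below 0.1 here, and the difference between the changes of Hn-RA and Hn-RC was not tested otherwise. A direct RNA read begins at the 3′ end and often stops before the 5′ end, so that a read too short to reach the start that sets these isoforms apart can be divided between them. Hn-RB was at 3.56, 6.26 and 5.24 TPM in tau and 8.88, 0.11 and 0.0035 TPM in control heads, at or above 3 reads in 3 libraries. Hn-RD, which holds an additional exon and a coding sequence of 537 nt, was at most 0.0084 TPM in tau and at 2.30, 3.27 and 4.80 TPM in control heads. These Hn-RD values were under 3 reads in all libraries and allow no fold change.

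Pu and bw kept the same leading isoform in both genotypes, and the leading shares overlapped in 3 of 3 genes with several isoforms. Pu-RA and Pu-RB differ in their start by several kilobases and in the beginning of the coding sequence, which has 975 nt in Pu-RA and 822 nt in Pu-RB. Pu-RA was at 38.1, 56.2 and 62.4 TPM in tau and 49.2, 42.1 and 48.0 TPM in control heads. Pu-RB was at 24.7, 29.1 and 19.98 TPM in tau and 15.1, 21.9 and 29.8 TPM in control heads, so both overlapped between genotypes. The share of Pu-RA was 57.9%, 64.4% and 73.4% in tau and 74.6%, 64.0% and 61.2% in control heads (exact permutation p = 0.8). Pu-RC was under 3 reads in all libraries. Of bw, bw-RA was at 5.84, 3.76 and 5.86 TPM in tau and 8.78, 5.26 and 5.24 TPM in control heads, and bw-RD, which ends earlier, was at 0.98 to 3.01 TPM in tau and 0 to 3.29 TPM in control heads. The share of bw-RA was 80.0%, 55.6% and 85.7% in tau and 72.7%, 66.7% and 100% in control heads (exact permutation p = 0.7), from 3 to 11 reads of the gene in a library.

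**Figure D4:**
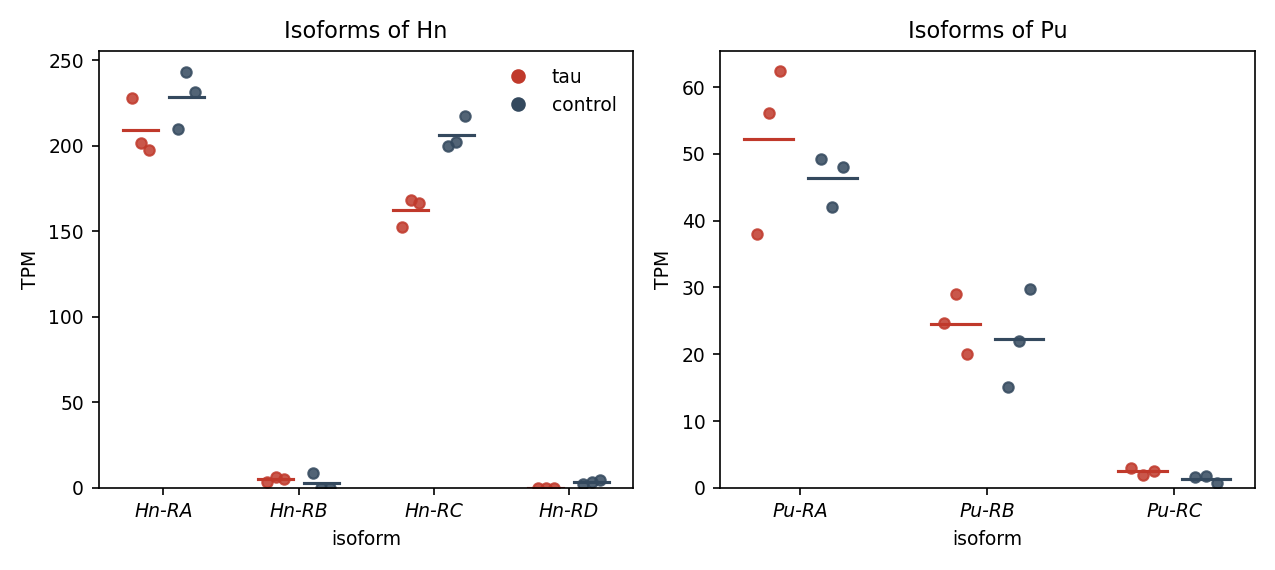
TPM of each isoform of Hn (left) and Pu (right) in 3 tau libraries (red, left of each pair) and 3 control libraries (dark, right of each pair). Points are libraries and lines are means. Hn-RC is at 153 to 168 TPM in tau and 200 to 217 TPM in control libraries, and the isoforms of Pu that were tested overlap.

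Divided by isoform length, Hn had the highest level in both genotypes, and of the genes with reads st, bw and ry had the lowest in tau heads. In TPM per kilobase, Hn was highest with 238 ± 4.25 in tau and 279 ± 11.2 in control heads, and v was next with 78.1 ± 10.2 in tau and 81.2 ± 6.51 in control heads (SD, n = 3 each). Pu followed with 45.7 ± 6.59 in tau and 40.4 ± 4.46 in control heads, and se with 26.5 ± 3.95 in tau and 38.7 ± 9.29 in control heads. The order of Pu and se was clear of the spread in tau but not in control heads. In tau heads w came next with 14.1 ± 6.91 TPM per kilobase, against 6.40 ± 1.69 in control heads. Because TPM here counts reads, the division by length lowers the place of long isoforms such as that of ry. The order of se and w in tau heads turns without it, since their means were then 21.8 TPM for se and 33.1 TPM for w. That of st and ry turns in both genotypes, at 8.58 and 11.4 TPM in tau and 9.72 and 15.6 TPM in control heads. That of w and ry turns in control heads, with means of 15.1 and 15.6 TPM. The remaining genes were close together: st had 4.00 ± 1.50 in tau and 4.53 ± 2.87 in control heads, bw had 2.61 ± 0.10 in tau and 3.14 ± 1.31 in control heads, and ry had 2.62 ± 0.89 in tau and 3.61 ± 1.34 in control heads. In control heads w was above bw and ry in TPM per kilobase in each library. It ranged from 4.45 to 7.47, against 1.91 to 4.53 for bw and 2.41 to 5.06 for ry. The place of st among them varied between control libraries, at 1.63 to 7.36. These orders were not tested.

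The genes whose log2(TPM + 1) followed that of w most closely over the 6 libraries, among 4938 genes with a mean of at least 20 TPM, were RpL4, a ribosomal protein gene, with a Pearson r of 0.988, GIIIspla2 with 0.970 and CG11857 with 0.970. These are the highest of many correlations over 6 libraries that share their genotype and are given as a description. RpL4 was at 2858, 2848 and 3001 TPM in tau and 2773, 2773 and 2696 TPM in control heads, so its range was narrow. Among the members, the r with w was 0.44 for st, 0.05 for bw, 0.44 for Pu, -0.54 for se, -0.59 for v, -0.06 for ry and -0.85 for Hn.

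Of the other genes of these pathways, 0 of 43 tested in 6 lists passed the test in either direction (limma), against 1.08% of all genes, with 2 at an unadjusted p under 0.05, against 8.16%. Among other ommochrome genes, 2 of 3 were tested, with a median difference of 0.18 on the log2 scale. The most abundant, KFase, which hydrolyses formylkynurenine, was at 42.4, 39.1 and 42.0 TPM in tau and 36.2, 42.1 and 41.9 TPM in control heads. Among 9 other genes of pteridine and tetrahydrobiopterin synthesis the median was 0.07, with 7 above 0. The most abundant of them, cl, was at 202, 188 and 211 TPM in tau and 208, 201 and 180 TPM in control heads. The 2 genes of guanine nucleotide supply had a median of -0.12, and bur, which encodes GMP synthetase, was at 71.6, 57.1 and 74.2 TPM in tau and 88.9, 63.2 and 76.8 TPM in control heads.

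Among 13 genes of granule trafficking, the class of eye colour genes that act in transport to lysosome-related organelles, the median difference was -0.17, and 3 did not overlap between genotypes, against 13.0% of all genes. The most abundant, ltd, which encodes the Rab GTPase Rab32 and is the lightoid eye colour gene, was at 52.6, 58.7 and 60.5 TPM in tau and 69.2, 77.7 and 78.5 TPM in control heads. It was lower in every tau library but did not pass (difference -0.39, adjusted p = 0.616, limma). Among 12 further transporters of the white subfamily the median was -0.25, and 2 did not overlap, a share near those 13.0%. CG3164 was the most abundant, with 150, 223 and 190 TPM in tau and 225, 225 and 195 TPM in control heads. E23, a transporter gene induced by ecdysone, had the lowest difference of the list, -1.59 (unadjusted p = 0.0462, adjusted p = 0.603, limma), from 0, 3.01 and 5.86 TPM in tau and 7.69, 6.58 and 10.5 TPM in control heads, levels near the floor of 3 reads.

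The genes that use tetrahydrobiopterin or act beside it in amine and nitric oxide synthesis had a median difference of 0.67 over 5 genes, all of them above 0 and 0 past the threshold. The median is that of Trhn, with a mean of 11.0 TPM in tau and 6.57 TPM in control heads, and the most abundant members, Vmat and Ddc, had differences of 0.13 and 0.09. Vmat, the vesicular monoamine transporter and the most abundant of them, was at 46.8, 101 and 82.9 TPM in tau and 67.0, 75.0 and 59.3 TPM in control heads. The gene ple encodes tyrosine hydroxylase, the rate-limiting enzyme of dopamine synthesis, and was at 17.5, 52.6 and 38.1 TPM in tau and 20.9, 15.8 and 17.5 TPM in control heads. Its genotypes overlapped through tau replicate 1, and the difference of 0.84 did not pass (unadjusted p = 0.0349, adjusted p = 0.534, limma). Nos, the nitric oxide synthase gene, had the largest difference, 1.55 (unadjusted p = 0.0519, adjusted p = 0.616, limma), and was the only one without overlap. It was at 7.31, 9.02 and 8.78 TPM in tau and 3.29, 6.58 and 0 TPM in control heads, near the floor of 3 reads. The genes E23, ple, Nos, Trhn, Ddc, Lsp2 and Rh3 were named after their values were seen.

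**Figure D5:**
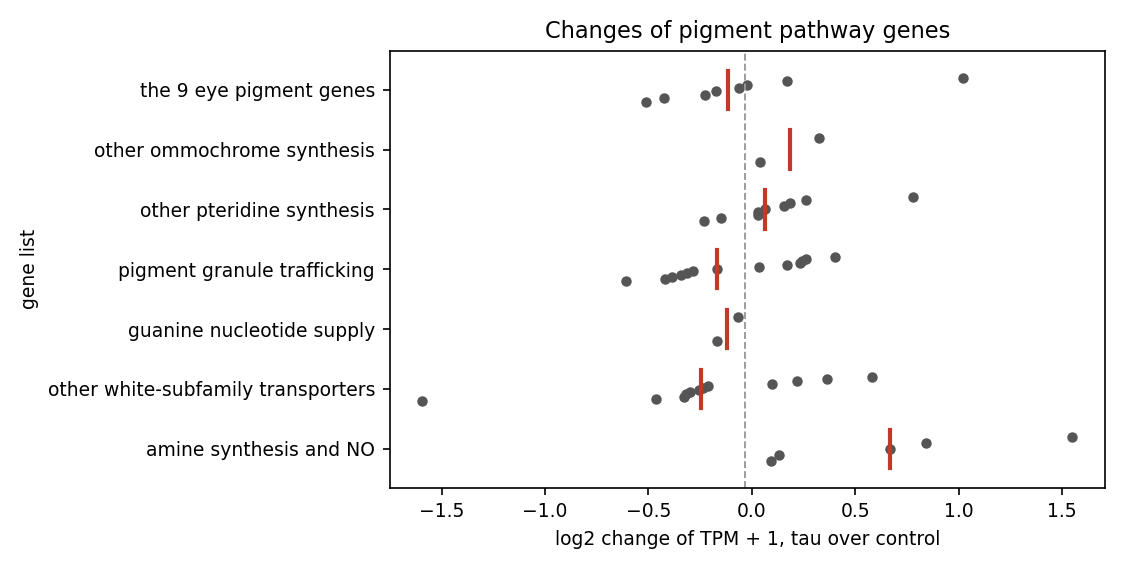
Difference between tau and control heads on the log2(TPM + 1) scale for each tested gene (points) of the eye pigment genes and of 6 further lists, with the median of each list (red) and the median of all genes tested, -0.04 (dashed). The medians of the lists run between -0.25 and 0.67, and no gene in them passed the test.

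Among the markers of other cell types, 1 gene passed the test. Rh4, an ultraviolet opsin of R7 photoreceptors, was at 1775, 1849 and 1897 TPM in tau and 1199, 1331 and 1136 TPM in control heads, a difference of 0.59 (adjusted p = 0.00818, limma). Over the 12 photoreceptor genes tested the median was 0.05, and ninaE, the opsin of the outer photoreceptors, was at 27891, 28204 and 33183 TPM in tau and 22549, 25227 and 22986 TPM in control heads (adjusted p = 0.0707, limma). A further opsin gene, Rh3, was at 700, 738 and 726 TPM in tau and 569, 625 and 618 TPM in control heads (adjusted p = 0.480, limma). Rh4, ninaE and Rh3 were higher in every tau library. They were the 3 of 12 without overlap, against 13.0% of all genes, and the 3 at an unadjusted p under 0.05, against 8.16%. Among the sex markers the yolk protein gene Yp3 was at 12694, 14311 and 10329 TPM in tau and 15226, 19356 and 16707 TPM in control heads (adjusted p = 0.0876, limma). In the glial, neuronal, fat body, sex and retinal pigment cell lists 0 genes passed (limma), and Lsp2 of the fat body and Yp3 were at an unadjusted p under 0.05, where all genes had 1.08% past the threshold and 8.16% at that p. The most abundant neuronal gene, nSyb, was at 222, 341 and 360 TPM in tau and 358, 313 and 269 TPM in control heads, the glial gene Gs2 at 630, 902 and 873 TPM in tau and 768, 800 and 672 TPM in control heads, and the fat body gene fit at 915, 795 and 598 TPM in tau and 534, 861 and 756 TPM in control heads. The part of cell composition in the levels of the eye pigment genes was not tested beyond the ratios to Pdh and to the photoreceptor markers.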

How the data were processed

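Direct RNA libraries from pools of 500 heads, 3 of tau and 3 of control flies, were analysed, with groups taken from the labels. The authors called bases with Guppy, kept reads above a quality limit, used minimap2 to align reads to FlyBase transcripts (dm6), secondary alignments included, and deposited the TPM that NanoCount estimated for each isoform. Beside them the authors deposited their DESeq2 comparison, with a mean normalized signal, a log2 fold change and its error on the log2 scale, a test score and p-values, which were not used. Between 41.7% and 44.4% of values above 0 were whole reads in a library, so no count test was run, in place of the authors' test on counts.

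Features (isoforms, or genes as sums of isoforms) averaging 5 TPM or more were compared in R v4.3.3 by limma v3.58.1, fitted to log2(TPM + 1), with a trend, two-sided, all 6 libraries, no covariate, and Benjamini-Hochberg adjustment over all features. A fold change on this scale understates the change of low genes. For shares and ratios an exact permutation test over libraries was used, which cannot fall below 0.1. Libraries are separate pools, so p-values measure the spread between pools. Poisson intervals and floors cover counting error only, whereas the intervals from limma rest on the spread between libraries. Annotation came from Ensembl release 115 (BDGP6.54), the same assembly. Of the 30738 isoforms, 30718 were in it. The list symbols Trhn and ltd were matched as Trh and Rab32. Rh6, lncRNA:roX1 and lncRNA:roX2 were not analysed here.

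The members were given as symbols, and they and the gene lists were chosen with earlier results of these data known. Named were all 9 members with their isoforms, of each list the most abundant gene and every gene past the threshold, and the 3 genes with the highest Pearson r with w. The gene fit was tested on simulated data, in which only genes with a mean of at least 20 TPM were changed. That simulation does not cover genes as low as st, bw and ry. Exact tests used scipy v1.17.1 and tables pandas v2.3.3, both in Python v3.11.15. Alternatives were the pseudocount, the filter, the scaling, robust variance, identical isoforms counted once, a replicate block and leaving out each library. The ratios of w and of se were added after the data were seen.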

Additional observations from a re-analysis of the deposited data

How the results depend on the processing

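No eye pigment gene or isoform passed the threshold under any of the alternatives run (pseudocounts of 0.5 and 5 TPM, no filter, a filter at a mean of 20 TPM, median-of-ratios scaling, robust variance, identical isoforms counted once for isoforms, a replicate block, and each library left out), and the lowest adjusted p was 0.180 (limma), for w without tau replicate 1. Few features passed at all in some of these alternatives: 29 of 8947 genes and 25 of 12867 isoforms without control replicate 3. Without the filter 0 of 28413 isoforms passed, so no member isoform could. The absence of called members there says little about them. The difference of w stayed above 0 under every alternative run for genes. With each library left out in turn it ranged from 0.65 to 1.25 on the log2 scale, and the log2 ratio of w to st and bw ranged from 0.94 to 1.46. With the replicate block w kept 1.02 (adjusted p = 0.566, limma). In that setting 0 eye pigment genes and 0 of their isoforms were called, against 77 of all 8961 genes and 100 of all 12800 isoforms. Same-numbered tau and control libraries did not deviate together (r = -0.0027, 0.065 and -0.072), so the numbers were not taken as pairs.

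Of 13 changes of genes and isoforms, 5 turned their direction under at least 1 alternative. With median-of-ratios scaling, st was at 0.0075. With libraries left out in turn, st ranged from -0.56 to 0.40, v from -0.16 to 0.0095, bw from -0.44 to 0.10, Pu-RA from -0.0022 to 0.35 and Pu-RB from -0.071 to 0.40. Without a turn in direction, ry ranged from -0.66 to -0.16, se from -0.64 to -0.33 and Pu from 0.10 to 0.30. The difference in share ranged from -5.44 to 2.68 percentage points for Pu-RA and from -12.6 to 4.06 for bw-RA. The count of leading isoform shares without overlap was 0 to 1. The cause was not tested. At 2 to 53 reads for w, st, bw and ry in a library, depth limits what could be detected.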
